A study of Mus musculus with 4 samples.

Results

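Cntnap2 and 9 related genes of the Caspr and contactin families were followed in cultured mouse astrocytes with an shRNA against Phf8 and with a control shRNA. The 10 genes were taken by symbol from the 55421 genes of the count files: the Caspr genes Cntnap1, Cntnap2, Cntnap4 and Cntnap5a, and the contactin genes Cntn1, Cntn2, Cntn3, Cntn4, Cntn5 and Cntn6. The family was chosen because Cntnap2 had the largest log2 fold change of all genes in this same comparison, so the fold changes and calls of these genes describe them and support nothing. The astrocytes had been differentiated in serum-containing medium from neural stem cells of the C57BL/6J strain, and the cells of all 4 libraries had been infected with a lentivirus that expressed an shRNA, a hairpin RNA that lowers the transcript it matches. There were 2 libraries with the control shRNA and 2 with the Phf8 shRNA, called biological replicates in the design text. The labels do not give whether these came from separate cell preparations or how many hairpins were used. The errors thus reflect at most the spread between these libraries, which may be technical.

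Contactins are cell adhesion molecules of the immunoglobulin superfamily that are held in the outer membrane by a lipid (GPI) anchor and have no cytoplasmic part. Caspr proteins (contactin-associated proteins) are neurexin-related transmembrane proteins that pair with contactins on the same membrane and reach the membrane skeleton through their cytoplasmic tails. At the paranodes of myelinated axons the products of Cntnap1 and Cntn1 bind a glial form of neurofascin. At the neighbouring juxtaparanodes the products of Cntnap2 and Cntn2 hold voltage-gated potassium channels in place. CNTNAP2 is also a gene in which recessive loss causes epilepsy with intellectual disability in humans.

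RefSeq (build GRCm38.p6) promoter windows were held for 7 of the 10 genes, and Cntnap1, Cntnap4 and Cntnap5a were not among them. The 250 bases before the RefSeq start are printed for 4 genes that span the range of outcomes described below: Cntnap2, Cntn3, Cntn1 and Cntn5. Capitals mark CG dinucleotides, since Phf8 encodes a histone demethylase whose PHD finger binds the methyl mark of active promoters, a mark common at CG-rich starts. No binding or histone data are part of this series.
Cntnap2, chr6:45059811-45060060, plus strand: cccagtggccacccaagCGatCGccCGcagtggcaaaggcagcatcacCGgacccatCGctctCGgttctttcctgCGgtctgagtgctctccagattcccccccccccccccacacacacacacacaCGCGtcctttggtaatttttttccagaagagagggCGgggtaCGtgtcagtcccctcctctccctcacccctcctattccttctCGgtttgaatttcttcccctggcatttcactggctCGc
Cntn3, chr6:102464668-102464917, minus strand: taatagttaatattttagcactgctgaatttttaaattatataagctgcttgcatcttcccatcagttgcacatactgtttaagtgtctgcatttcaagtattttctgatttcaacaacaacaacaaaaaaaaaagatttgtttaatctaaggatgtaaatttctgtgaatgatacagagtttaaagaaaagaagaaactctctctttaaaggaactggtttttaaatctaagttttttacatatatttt
Cntn1, chr15:92050915-92051164, plus strand: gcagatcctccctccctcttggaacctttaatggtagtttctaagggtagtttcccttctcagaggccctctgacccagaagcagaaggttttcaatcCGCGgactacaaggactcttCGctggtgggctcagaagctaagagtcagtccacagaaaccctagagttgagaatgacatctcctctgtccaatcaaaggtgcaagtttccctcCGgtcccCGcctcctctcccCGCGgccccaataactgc
Cntn5, chr9:10904776-10905025, minus strand: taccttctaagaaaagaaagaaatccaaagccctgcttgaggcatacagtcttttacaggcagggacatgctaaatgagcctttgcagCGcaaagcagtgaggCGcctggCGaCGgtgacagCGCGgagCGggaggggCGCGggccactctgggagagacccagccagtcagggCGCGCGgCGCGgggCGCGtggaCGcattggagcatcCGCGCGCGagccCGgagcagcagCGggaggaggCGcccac
The Cntnap2 window holds 13 CG dinucleotides, a number reached by 31.5% of 32851 such RefSeq windows, whose median is 6. The Cntn5 window holds 24 (12% of windows hold at least as many), the Cntn1 window 7 and the Cntn3 window 0. In GENCODE M21 the Cntn1 and Cntn5 windows lie just outside the gene. The Cntnap2 window lies in an intron of a transcript that starts 0.704 kb further upstream, and the Cntn3 window lies in an intron 108.4 kb inside the gene. RefSeq lists further starts for Cntn1, with 3 CG dinucleotides in each window, and for Cntn5, with 26. Whether CG content goes with the fold changes was not tested. The GC box letters GGGCGG, searched on both strands, occur in the Cntnap2 window and in 32.7% of all windows, and the forkhead core letters TGTTTA occur in the Cntn3 window and in 12% of all windows. Neither TATAAA (12.4% of all windows) nor TGTTTA occurs in the Cntnap2 window. Cntnap2 has 6 annotated transcripts, and RefSeq lists a further start near its distal end, at 47244396. The counts are per gene and cannot tell these starts apart.

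Phf8, the targeted gene, stood at 53.3 and 53.0 CPM (counts scaled to a common library size, here after TMM normalization) in the control libraries and at 44.3 and 42.3 CPM in the Phf8 shRNA libraries. Its log2 fold change of -0.30 ± 0.06 (SE) was small but past the threshold (adjusted p = 1.72e-06, edgeR quasi-likelihood F test, Benjamini-Hochberg). Libraries held 36839530 to 44724759 reads. Of 21042 genes tested, 52.1% passed an adjusted p under 0.05, 24.8% higher and 27.3% lower with Phf8 shRNA. Higher genes were 47.7% of the calls, against 58.0% with upper quartile scaling and 40.3% with the library size alone. All 10 astrocyte markers on a textbook list were present above 1 CPM in every library.

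Of the 10 genes, 9 passed the low-count filter and Cntnap5a did not. With Phf8 shRNA, 6 of these 9 were called higher (Cntnap2, Cntnap4, Cntn1, Cntn3, Cntn4 and Cntn6) and 1 lower (Cntnap1), beside 24.8% and 27.3% of all genes. Cntn2 and Cntn5 were not called. The median log2 fold change of the 9 was 1.03, against 0.01 over all genes tested. Since the genes were picked on this comparison and 1 of them passed only through the group where it is high, these figures are descriptive.

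**Figure D1:**
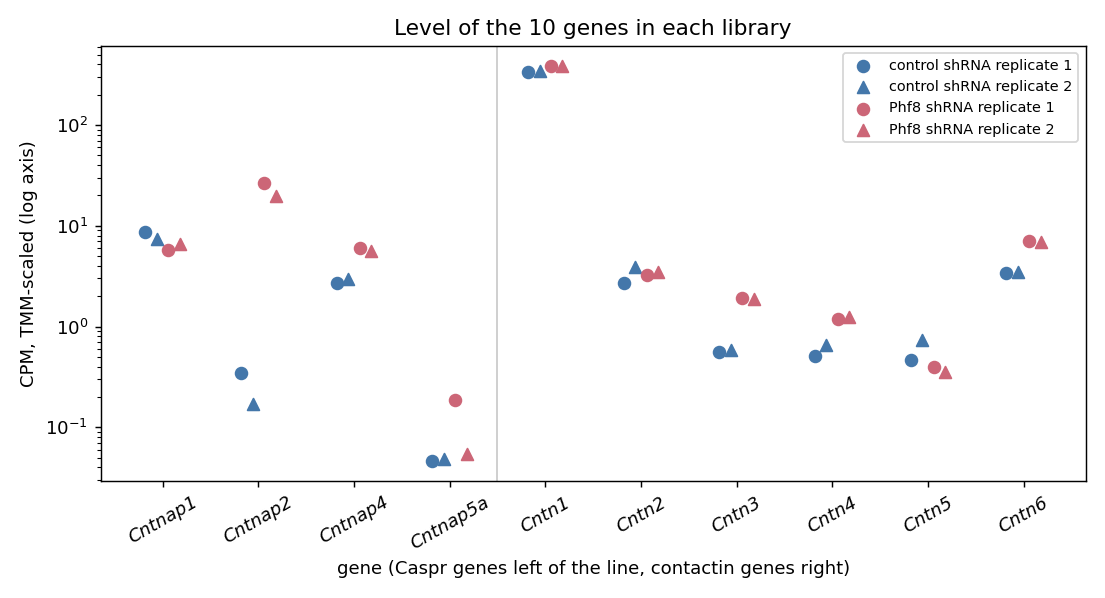
Level of each of the 10 genes in each of the 4 libraries, in CPM on a log axis, with Caspr genes left of the line and contactin genes right of it. Cntnap2 moves from under 1 CPM in both control libraries to 19.6 and 26.6 CPM in the Phf8 shRNA libraries, while Cntn1 stays between 338 and 388 CPM.

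Cntnap2 (ENSMUSG00000039419), which spans 2245 kb on the plus strand of chromosome 6 from 45059357 to 47304213 (mm10), had 15 and 7 reads in control replicates 1 and 2 and 1152 and 719 reads in Phf8 shRNA replicates 1 and 2. In CPM these were 0.347 and 0.171 against 26.6 and 19.6. Both Phf8 shRNA libraries thus lay far above both control libraries, where the transcript was close to the limit of detection. The log2 fold change was 6.46 ± 0.16 (SE), and the depth-adjusted ratio of reads was 89.5 (95% exact binomial interval 59.0 to 143, which covers counting error only). This SE, derived from the fold change and F, is narrower than that interval and understates the error. Because the control level rests on 22 reads, a single control library moves the estimate. Without control replicate 1 the log2 fold change was 7.05, and without control replicate 2 it was 6.06. Among the 4398 genes called higher at a mean level of 1 CPM or more, those just below it were Chst1 at 4.78, Neu4 at 4.08 and Gm36988 at 3.86. Like Cntnap2, Neu4 and Gm36988 passed the low-count filter only through the Phf8 shRNA group. No exon of Cntnap2 overlaps an exon on the opposite strand.

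The other Caspr genes moved much less. Cntnap4, whose product has been linked to synaptic transmission by interneurons, was at 2.68 and 2.93 CPM in control and at 6.08 and 5.67 CPM in Phf8 shRNA libraries. It rose 2.10-fold (log2 fold change 1.07 ± 0.14 SE), and 8.01% of its exonic length overlaps a gene on the opposite strand. Cntnap1, which encodes the paranodal protein Caspr, was at 8.58 and 7.33 CPM in control and at 5.69 and 6.54 CPM in Phf8 shRNA libraries. It fell by 0.39 on the log2 scale (SE 0.11), and it was the only one of the 9 called lower. That call was lost without control replicate 1 (log2 fold change -0.28). Cntnap5a, a little studied relative expressed in the nervous system, had 2 and 2 control reads and 8 and 2 Phf8 shRNA reads. Its ratio of 2.63 has a counting interval of 0.759 to 11.5, so no difference was detectable at this depth. Of the Caspr genes outside the set, Cntnap5b rose from 73 and 68 to 131 and 109 reads (log2 fold change 0.84 ± 0.18 SE, edgeR adjusted p = 1.15e-05). Cntnap5c had 7 and 6 control reads and 1 and 0 Phf8 shRNA reads and did not pass the filter, and Cntnap3 had 0 reads in all 4 libraries.

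Among the contactin genes, Cntn1 was by far the most abundant. Cntn1, the contactin that pairs with Caspr and is also made by glia of the oligodendrocyte lineage, was at 338 and 340 CPM in control and at 388 and 386 CPM in Phf8 shRNA libraries. This was a small rise of 1.14-fold (log2 fold change 0.19 ± 0.06 SE), and 34.1% of all genes tested had a log2 fold change at least as large. Libraries of each group stayed within 1.01-fold of each other, a spread that may be technical. The Cntn1 call was lost with the coefficient of variation set to 0.2. Cntn2, which encodes TAG-1, the usual partner of the Cntnap2 product, was at 2.73 and 3.91 CPM in control and at 3.21 and 3.51 CPM in Phf8 shRNA libraries. Here both groups overlapped, with a log2 fold change of 0.02 ± 0.15 (SE). The 2 partners of the juxtaparanodal pair thus had log2 fold changes of 6.46 and 0.02.

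Cntn3, Cntn4, Cntn5 and Cntn6 encode contactins best known from neurons, where several bind the receptor phosphatase encoded by Ptprg. Cntn3 was at 0.555 and 0.587 CPM in control and at 1.94 and 1.88 CPM in Phf8 shRNA libraries, a 3.34-fold rise (log2 fold change 1.74 ± 0.25 SE) that rests on 24 and 24 against 84 and 69 reads. Cntn6 went from 3.40 and 3.45 to 7.05 and 6.92 CPM (1.03 ± 0.13 SE). Cntn4 went from 0.509 and 0.660 to 1.18 and 1.23 CPM (1.04 ± 0.28 SE). For these 3 genes every Phf8 shRNA library lay above every control library, with rises of 2.04-fold to 3.34-fold. The share of all genes with such separation was not counted. Groups were also separate for genes that were not called, such as Cul1, Foxp2 and Cntn5, so separation says little by itself. Cntn5 differed from them: it had 20 and 30 control reads and 17 and 13 Phf8 shRNA reads, a log2 fold change of -0.66 ± 0.36 (SE) that was not called. Its counting interval for the ratio, 0.388 to 1.01, does not exclude equal levels.

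**Figure D2:**
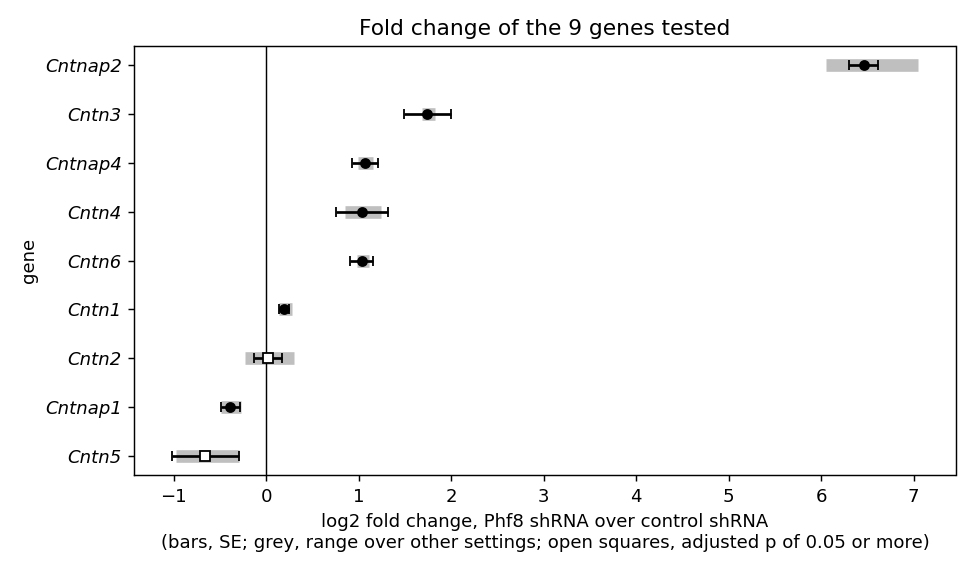
Log2 fold change of Phf8 shRNA over control shRNA for the 9 genes tested, with SE bars, and in grey the range over 13 other settings (12 for Cntn5). Cntnap2 stands at 6.46, Cntn3 at 1.74, Cntnap4, Cntn4 and Cntn6 near 1, and the open squares of Cntn2 and Cntn5 mark genes that were not called. The SE bar of Cntnap2 is narrower than the counting error on its 22 control reads.

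Genes of different length were compared in CPM per kb of exonic length. In control libraries the order was Cntn1 (35.9), Cntnap1 (1.35), Cntn6 (0.527), Cntnap4 (0.447), Cntn2 (0.357), Cntn5 (0.132), Cntn3 (0.0848), Cntn4 (0.0689), Cntnap2 (0.0253) and Cntnap5a (0.00435), as means of 2 libraries. Neighbours in this order did not overlap between libraries, although Cntn3 and Cntn4 changed places when the longest transcript was used as the length. With Phf8 shRNA, Cntnap2 (2.26 ± 0.487 SD, n = 2) took the second place behind Cntn1 (41.0 ± 0.162). Cntn6 (1.08), Cntnap1 (1.04) and Cntnap4 (0.935) followed with overlapping libraries from one to the next. Cntn2 (0.362), Cntn3 (0.284), Cntn4 (0.142), Cntn5 (0.0825) and Cntnap5a (0.0109) came last without overlap. Of the summed level per length of the 10 genes, Cntnap2 made up 0.0871% and 0.0428% in control and 5.46% and 4.08% in Phf8 shRNA libraries, while Cntn1 made up 92.3% in both control libraries and 86.3% and 87.5% in the others.

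**Figure D3:**
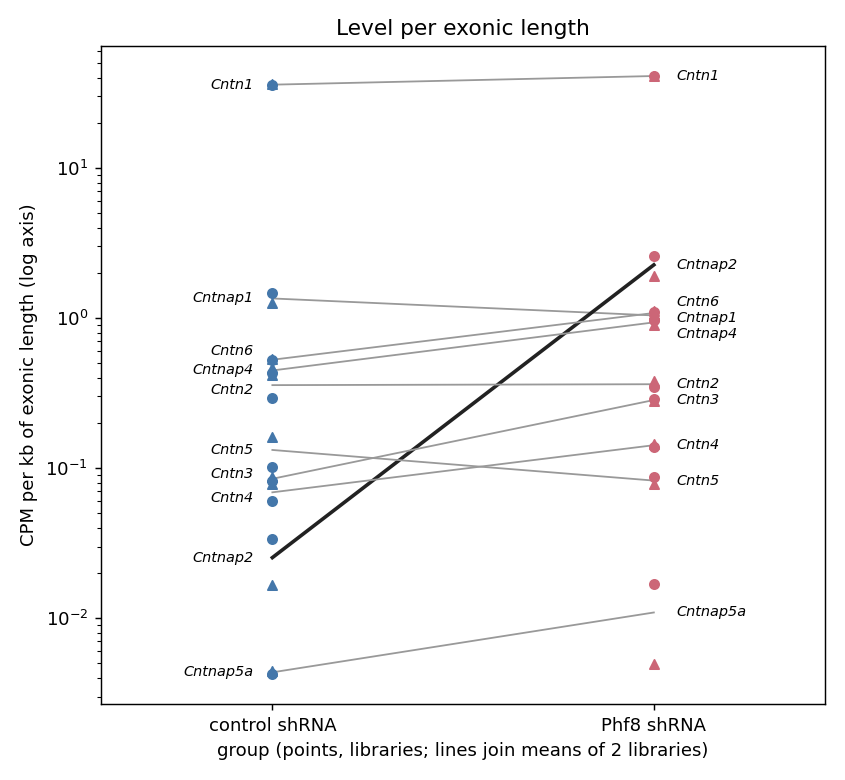
CPM per kb of exonic length on a log axis in control and Phf8 shRNA libraries, with a point for each library and lines that join group means. The bold line of Cntnap2 crosses from ninth of the 10 genes (0.0253) to the place behind Cntn1 (2.26), and the other lines are much flatter.

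The genes around Cntnap2 did not share its rise. Within 1 Mb of either end, 17 other genes were tested, 0 before it, 1 inside it and 16 after it. Of these, 3 were higher, 1 was lower and 13 were not called, with log2 fold changes from -1.36 to 0.67 and a median of 0.01. Rbpj-ps3, a pseudogene inside the Cntnap2 span, had 26 and 23 control and 23 and 23 Phf8 shRNA reads. The nearest tested gene after it, Cul1, which encodes a ubiquitin ligase scaffold, lies 149.2 kb away and had a log2 fold change of -0.06 ± 0.06 (SE). Elsewhere on chromosome 6, Chl1, Cntn6 and Cntn4 lie in a row: Chl1 fell by 1.01 on the log2 scale (SE 0.06, edgeR adjusted p = 1.12e-65) while Cntn6 and Cntn4 rose by 1.03 and 1.04.

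**Figure D4:**
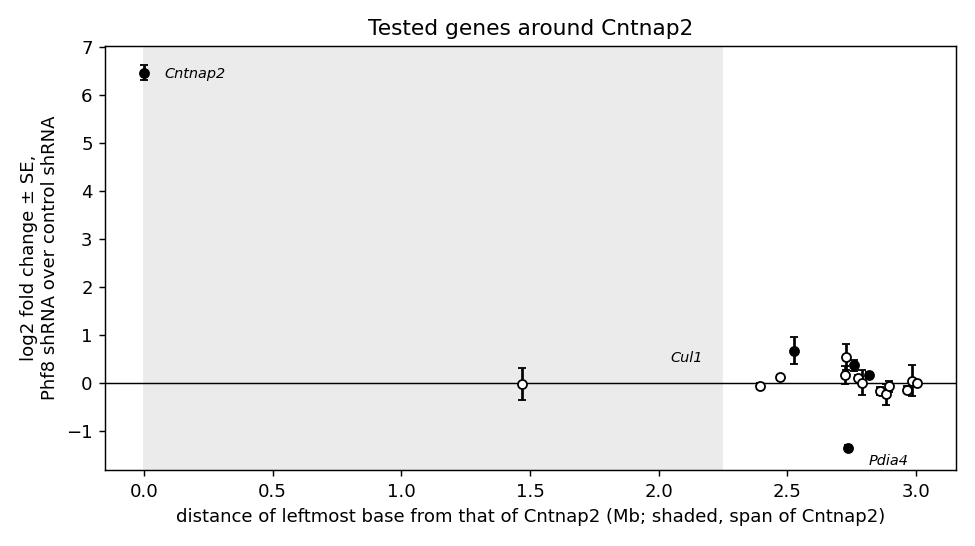
Log2 fold change with SE of tested genes against the distance of their leftmost base from that of Cntnap2 in Mb, with the span of Cntnap2 shaded and called genes filled. Cntnap2 alone is above 1, and the others lie between -1.36 and 0.67.

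Of the 6 genes whose pattern over the 4 libraries was closest to that of Cntnap2, by Euclidean distance of log2 CPM centred on the control mean among 15676 genes at a mean level of 1 CPM or more, 5 are given here: Chst1 (distance 2.35), Neu4 (3.54), Gm13187 (3.80), Gm36988 (3.83) and 2900052N01Rik (4.04). With 4 libraries in 2 groups this measure mostly ranks the size of the rise. Chst1, which encodes a sulfotransferase, went from 21 and 15 reads in control to 501 and 441 reads in Phf8 shRNA libraries. Neu4, which encodes a sialidase, went from 9 and 10 to 166 and 144 reads. Neu4 and Gm36988 passed the low-count filter only through the Phf8 shRNA group, where they are high. 2900052N01Rik, a lincRNA gene, went from 14 and 17 to 203 and 167 reads. All 5 genes had higher levels in both Phf8 shRNA libraries than in either control library, which follows from how they were picked.

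Genes for the binding partners, from lists written from textbook knowledge, were mixed by family, and their counts stand beside 24.8% higher and 27.3% lower of all genes tested. The lists were chosen with earlier results of these data known, so these counts are descriptive. Of 6 genes of the L1 family and nodal adhesion, 5 were tested, 3 rose and 2 fell. Mag, a myelin adhesion gene, went from 11 and 8 to 95 and 89 reads, and L1cam rose 1.82-fold. Mag passed the low-count filter only through the Phf8 shRNA group, where it is high, and it is also counted among the oligodendrocyte markers. Chl1 and Nfasc, the neurofascin gene, were lower, Nfasc going from 227 and 224 CPM in control to 148 and 144 CPM with Phf8 shRNA (1.54-fold lower, edgeR adjusted p = 1.45e-27). Of 10 genes for contactin ligands and receptors, 7 rose, 2 fell and 1, Notch1, did not pass. Tnr, which encodes the matrix ligand tenascin-R, rose from 391 and 387 to 936 and 920 CPM (edgeR adjusted p = 7.03e-91). Aplp1, an amyloid precursor relative, rose 1.68-fold, the kinase gene Fyn 1.66-fold, and Ptprz1, whose product binds contactin-1, 1.61-fold from 1670 and 1690 to 2710 and 2680 CPM.

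The juxtaparanodal list, which holds potassium channel subunits and the proteins that gather with them, went both ways. Of 15 tested genes, 6 rose and 5 fell, with a median log2 fold change of 0.10 against 0.01 for all genes. Adam23, which encodes an LGI receptor, rose 2.98-fold and Lgi3 2.39-fold, whereas Lgi2 was 1.77-fold lower and the channel gene Kcna6 2.83-fold lower. For Kcna6, 39.6% of the exonic length overlaps a gene on the opposite strand. The use of strand in counting is not given, and how many of its reads come from that gene was not tested. In the membrane skeleton list 8 of 10 rose and 2 fell (median log2 fold change 0.485). Epb41l3, whose product links Caspr proteins to the cytoskeleton, rose 4.11-fold from 9.22 and 8.75 to 36.4 and 37.6 CPM (edgeR adjusted p = 3.35e-155). Ank3, the ankyrin-G gene, rose 2.87-fold, Epb41 1.92-fold and Sptbn4, a spectrin gene, 1.74-fold. The Sptbn4 call was lost with DESeq2 (adjusted p = 0.0666) and with the coefficient of variation set to 0.2 (0.120, edgeR's likelihood ratio test). Without control replicate 1 its log2 fold change was 0.609. Other named partner genes also lost their call with that set coefficient, as listed in the closing section.

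All 5 IgLON genes, which encode another group of GPI-anchored immunoglobulin proteins, rose, and their median log2 fold change was 0.92. Lsamp, Opcml, Ntm and Negr1 each span over 300 kb, and of 500 tested protein-coding genes that long 50.4% were called higher. Ntm went from 73.3 and 73.2 to 231 and 232 CPM (edgeR adjusted p = 2.5e-178), Opcml rose 2.53-fold, Lsamp 1.89-fold and Iglon5 1.74-fold. Of 4 FOXP genes, 1 rose and 1 fell: Foxp3 rose 1.59-fold, with 18.7% of its exonic length overlapping a gene on the opposite strand, and Foxp1 fell by 0.50 on the log2 scale (SE 0.08). Foxp2, whose product is known to repress CNTNAP2 in human neuronal cells, was at 2.10 and 2.00 CPM in control and 2.43 and 2.34 CPM in Phf8 shRNA libraries and did not pass (edgeR adjusted p = 0.326).

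**Figure D5:**
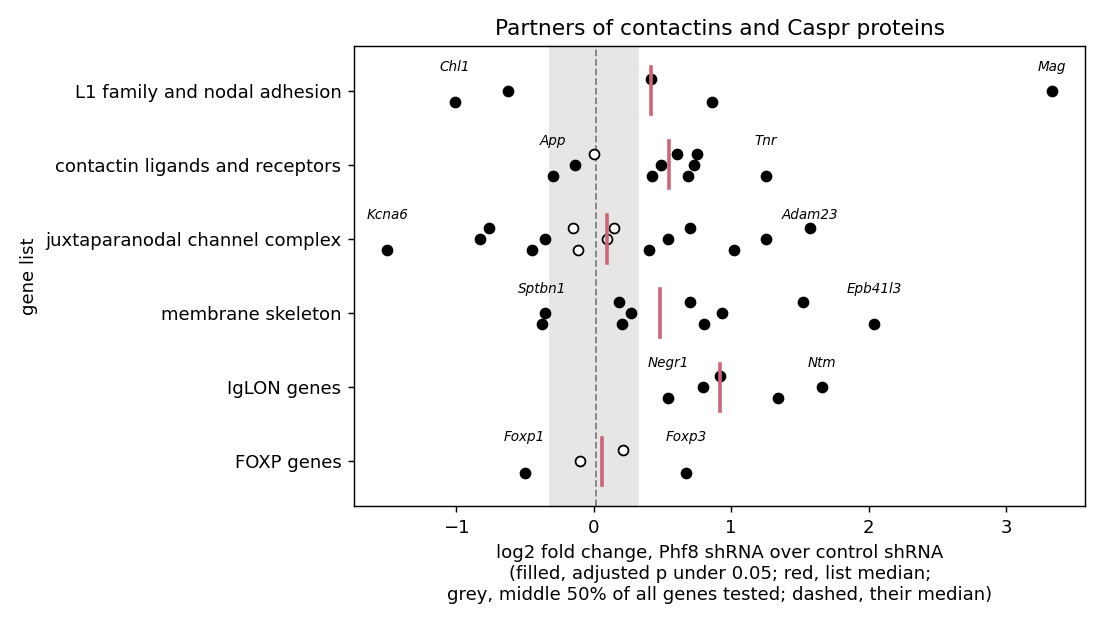
Log2 fold change of each tested partner gene by list, with called genes filled, the list median in red, and the middle 50% of all genes tested (-0.32 to 0.32) in grey. The 5 IgLON genes all lie to the right of the grey band, while the juxtaparanodal list runs from Kcna6 (2.83-fold lower) to Adam23 (2.98-fold higher).

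Most markers of neurons and of the oligodendrocyte lineage rose, and the other marker lists went both ways or were not called, beside 24.8% higher and 27.3% lower of all genes tested. Of 14 neuron markers, 9 were tested, of which 8 rose and 0 fell. The summed level of the 14 was 1170 and 1210 CPM in control and 1930 and 1920 CPM in Phf8 shRNA libraries. Most of that sum was Map2, at 902 and 936 CPM in control and 1390 and 1380 CPM in Phf8 shRNA libraries. Rbfox3 was not called, and Stmn2, Nefl, Gad2, Slc17a6 and Slc17a7 were not tested. Of 10 oligodendrocyte markers, 9 were tested and rose, from a sum of 137 and 135 to 353 and 317 CPM. Of these, Mag (11 and 8 control reads) and Opalin (5 and 3) passed the low-count filter only through the Phf8 shRNA group, where they are high. The rise of these genes is therefore descriptive. Of 7 oligodendrocyte precursor markers, 6 were tested and 5 rose, from 667 and 622 to 993 and 983 CPM. No marker of these 3 lists was at 0 in all 4 libraries, but 5, 3 and 1 of them were under 1 CPM in each library. Of the 10 astrocyte markers 3 rose and 6 fell, and their sum was 9850 and 9600 CPM in control and 7300 and 6560 CPM in Phf8 shRNA libraries. Slc1a2, a glutamate transporter gene, rose 7.20-fold, Glul, the glutamine synthetase gene, 2.22-fold and Gja1, a gap junction gene, 1.27-fold, whereas Gfap was 3.39-fold, Aqp4 2.51-fold and Aldoc 1.84-fold lower. Of 7 microglial markers 3 were tested and 0 were called by edgeR (adjusted p from 0.230 to 0.995), and their sum was 3.06 to 3.81 CPM over the 4 libraries, with C1qa at 0. Of 8 endothelial and mural markers 6 were tested, 1 rose and 4 fell, and Cdh5 was at 0. Their sum was 25.5 to 27.3 CPM over the 4 libraries, in which Pdgfrb went from 9.54 to 23.9 CPM (group means) while Acta2 went from 8.81 to 0.436, Kdr from 4.49 to 0.465, Rgs5 from 2.67 to 0.505 and Kcnj8 from 1.57 to 0.0545 CPM. Kcnj8 passed the low-count filter only through the control group, where it is high. In these bulk libraries more cells of a type and more RNA per cell cannot be told apart, and the part of other cell types in the change of Cntnap2 was not tested.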

How the data were processed

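RNA was sequenced from 4 astrocyte samples, after ribosomal RNA depletion with a stranded kit per the labels' protocols. HISAT2, HTSeq and DESeq2 with mm10 are named in the submitters' processing notes, without versions. The use of strand in counting and the gene annotation are both not given in the sources used here. Raw read counts per gene were deposited by the authors, 1 file a library, at 36839530 to 44724759 reads. Groups were taken from the titles. Counts of all genes were tested with edgeR 4.0.16 in R 4.3.3 (filterByExpr, TMM, quasi-likelihood F test, no covariates, two-sided, Benjamini-Hochberg, called at an adjusted p under 0.05), and SE was derived from the fold change and F. CPM are TMM-scaled. Lengths and overlaps came from GENCODE M21, whose spans equal the deposited ones for all 10 genes; read ratios have 95% exact (Clopper-Pearson) intervals. The named genes were the 10 genes, Phf8, up to 4 called genes a partner list with a mean of at least 1 CPM, the 6 genes most like Cntnap2, the next 3 rises and the neighbours of Cntnap2; some of these are not reported here. Members and lists were chosen with earlier results of these data known. In simulated counts of this comparison over 20633 genes, of 50 genes changed 1.25-fold 26 were recovered, of 50 changed 2-fold 46 and of 50 changed 4-fold 50, with 10 false calls. Few genes were changed there, in random directions and none at very low counts. Recovery and false calls with 52.1% of genes called, or for genes with few reads, were therefore not tested. The alternatives were other scalings, filters, DESeq2 1.42.0, limma-voom (limma 3.58.1), a set coefficient of variation, a replicate block, each library left out, and another gene length.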

Additional observations from a re-analysis of the deposited data

How the results depend on the processing

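Over 13 alternatives, Cntnap2, Cntnap4, Cntn3, Cntn4 and Cntn6 kept their direction and their call. With the biological coefficient of variation set to 0.2 instead of the 3.64% estimated from these libraries, 3305 genes were called (1262 higher, 2043 lower) instead of 10965, and 5 of the 9 genes tested were called higher and 0 lower: Cntn1 (adjusted p = 0.807) and Cntnap1 (0.514) were lost, as was Phf8 (0.639, edgeR's likelihood ratio test). In that setting the calls were 0 higher for other Caspr genes, 1 lower for the L1 list, 1 higher and 0 lower for contactin ligands and receptors, 2 higher and 1 lower for the juxtaparanodal list, 3 higher and 0 lower for the membrane skeleton and 0 higher and 0 lower for FOXP genes. Of 23 named partner genes, 9 lost their call there: Cntnap5b, Nfasc, Ptprz1, Aplp1, Fyn, Lgi2, Sptbn4, Foxp1 and Foxp3. With DESeq2, 8016 genes were called (38.1% of those tested), and the 9 genes kept their calls. The membrane skeleton list then had 6 higher calls, and the juxtaparanodal list had 5 higher and 4 lower. Upper quartile scaling left 1 lower call among contactin ligands and receptors, and with no low-count filter 1 other Caspr gene was called lower. Leaving out each library in turn gave 9053 to 10235 called genes, 0 to 1 of the 9 genes called lower and 1 to 2 lower calls among contactin ligands and receptors. The log2 fold change of Cntn2, never called, was -0.032 with the library size alone and -0.229 (without control replicate 1) to 0.303 without 1 library. The replicate block gave 10929 calls and changed no call of the 9 genes; the replicate numbers are only numbers in the labels, and the deviations of same-numbered libraries were uncorrelated across 15677 genes (Pearson r = 0.00471). Depth limits Cntnap5a (14 reads in all) and the control level of Cntnap2 (22 reads).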

Other observations

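Cntnap2 differed between both Phf8 shRNA libraries more than nearly all genes at its level did. Its CPM in Phf8 shRNA replicate 1 was 1.36 times that in replicate 2 (26.6 against 19.6), whereas the median ratio between these libraries was 1.05 among 4819 genes within 2-fold of its level, and 5 of those genes (0.104%), Cntnap2 included, had a ratio at least as large. Between the same libraries the other 8 genes tested differed by 1.01-fold (Cntn1) to 1.15-fold (Cntnap1), and Cntnap5a, with 8 and 2 reads, by 3.40-fold. Phf8 itself was at 44.3 and 42.3 CPM there.

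Most of the 9 genes tested are very long: 6 of them, Cntnap2, Cntnap4, Cntn3, Cntn4, Cntn5 and Cntn6, span over 300 kb. Of 500 tested protein-coding genes over 300 kb, a bound chosen after the data were seen, 50.4% were called higher and 28.6% lower with Phf8 shRNA, with a median log2 fold change of 0.21. Of 9859 such genes under 50 kb, 21.1% were called higher and 35.5% lower, with a median of -0.07. Cntn5, at 1244 kb, was not called, and Cntnap1 and Cntn2, at 20.2 and 33.8 kb, were called lower and not called.

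Gm13187 and Gm36988, which had patterns among the closest to that of Cntnap2, both lie within the span of Frmd4a on chromosome 2, which rose 1.36-fold.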
